A study of Mus musculus with 6 samples.

Results

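The genes described here mark the enteric nervous system, the network of neurons and glia in the gut wall, in RNA of mouse intestinal adenomas. The members are S100b, Sox10, Elavl4, Ret, Vip, Nos1, Tubb3 and Gfra1, taken by symbol and not by their level or change. They are 8 of the 34866 genes in the table of estimated counts. Adenomas were excised from C57BL/6J mice aged 100 to 120 days that were heterozygous for either of 2 germline truncating alleles of Apc, with 3 libraries from Apc1322T/+ mice and 3 from ApcMin/+ mice. Apc encodes a component of the complex that degrades β-catenin, and the longer Apc1322T product still binds β-catenin, which the ApcMin product does not. Each allele is carried in the germline, so that neurons, glia and muscle in a specimen carried it as well as the epithelium. No normal intestine was sequenced in these libraries, and a germline truncation leaves the gene in place, so that the counts do not check the genotype labels. By the study's methods, several RNA extractions of a single mouse were typically pooled into a sample. Neither they nor the labels name the mouse behind each library, so that the p-values measure the spread between these libraries, whether between mice or not.

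Enteric neurons lie mainly in the myenteric plexus, between the muscle layers, and in the submucosal plexus. They release transmitters that contract or relax the muscle and set secretion and blood flow. Enteric glia surround them and send processes into the mucosa up to the base of the epithelium. Both derive from neural crest cells that need the GDNF receptor, formed by Ret and its co-receptor Gfra1, to colonise the gut. An adenoma is largely epithelium, and neural RNA in an excised specimen can come from mucosal nerve fibres, from glia, or from submucosa and muscle taken with it. In RNA of a whole specimen, fewer cells of a type and less RNA per cell cannot be told apart. Several members are also known outside the nervous system, such as Ret in innate lymphoid cells and enteroendocrine cells.

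Sequences upstream of a RefSeq start site are shown for 3 members. Tubb3 and Nos1 were the members whose genotypes did not overlap, and Vip was set beside them as a transmitter gene whose genotypes did. The sequences are RefSeq sequences of GRCm38.p6, in which 6 of the 8 members had an entry. Each line runs 5′ to 3′ along the gene's strand, upstream of a RefSeq start site, and holds no annotated exon base. The capitals mark matches to the motifs named below them.
Tubb3: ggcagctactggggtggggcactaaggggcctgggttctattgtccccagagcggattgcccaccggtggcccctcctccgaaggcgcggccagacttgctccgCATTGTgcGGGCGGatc
Nos1: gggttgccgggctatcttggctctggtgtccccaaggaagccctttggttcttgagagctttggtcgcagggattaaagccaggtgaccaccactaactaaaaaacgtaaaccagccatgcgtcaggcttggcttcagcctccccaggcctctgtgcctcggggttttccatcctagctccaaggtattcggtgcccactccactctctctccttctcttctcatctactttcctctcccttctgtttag
Vip: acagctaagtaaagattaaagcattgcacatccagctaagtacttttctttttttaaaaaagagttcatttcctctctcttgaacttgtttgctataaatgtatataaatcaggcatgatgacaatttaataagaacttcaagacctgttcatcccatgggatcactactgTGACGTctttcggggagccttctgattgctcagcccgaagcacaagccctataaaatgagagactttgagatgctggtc
The Tubb3 stretch is chr8:123411303-123411423 on the plus strand, with 121 bases and a GC content of 67.8%. It holds the SOX core ACAATG on the minus strand, at -146 to -141 from the RefSeq start site, and the GC box GGGCGG on the plus strand, at -138 to -133. That start site, at 123411553, lies inside the annotated Tubb3 gene, whose start at 123411424 directly follows the stretch. The 129 exon bases between them, not printed, hold a further SOX core at -96 to -91 and a further GC box at -46 to -41. The Nos1 stretch is chr5:117866589-117866838 on the plus strand. It lies inside the annotated Nos1 gene, downstream of the gene's start at 117781032, and is thus not the sequence upstream of the whole gene. It has a GC content of 54% and no match to any of the 5 motifs searched. The Vip stretch is chr10:5638968-5639217 on the plus strand, with a GC content of 38.4%, and it holds the cyclic AMP response element core TGACGT at -79 to -74 from the start site. Both strands of 32851 windows of 250 bases before RefSeq start sites were searched, and the motifs could overlap. Of these windows, 6.47% held TGACGT, 32.7% held GGGCGG, 10.7% held ACAATG, 13% held the E-box CAGCTG and 3.21% held the TCF core CTTTGAT. The Tubb3 stretch printed has 121 bases, so that these shares do not hold for its length. A match describes the letters in the window only.

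The libraries held between 23132461 and 33518324 estimated counts, and 3 counts, taken as the floor, were worth between 0.0895 and 0.130 CPM (counts scaled to a common library total, with TMM factors). Epithelial markers were abundant in every library, with Epcam, the epithelial adhesion molecule, between 1798 and 2721 CPM. The neural genes were far lower. Of the 8 members, 6 passed edgeR's filter on low counts and entered the fit of 16536 genes, and Sox10 and Elavl4 did not.

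To compare one gene with another, levels were divided by exon length and are given as CPM per kb of exon, averaged over the 6 libraries. Ret, the signalling subunit of the GDNF receptor, was the most abundant member at 3.77 CPM per kb (range 2.95 to 4.33). It was followed by Vip at 1.84 (0.975 to 3.20), S100b at 1.43 (0.926 to 2.13) and Tubb3 at 1.15 CPM per kb (0.483 to 1.58). Over the libraries, the range of Vip overlapped with that of Ret, and those of Vip, S100b and Tubb3 with each other. Within each library, Ret lay above Vip. The order of Vip, S100b and Tubb3 differed between libraries and is not set. Gfra1, the co-receptor that binds GDNF, stood at 0.488 CPM per kb (0.288 to 0.696) and overlapped with Tubb3. Nos1 stood at 0.144 CPM per kb (0.0468 to 0.220), below every library of Gfra1. Sox10 and Elavl4 stood at 0.0597 and 0.0582 CPM per kb, with ranges that overlapped with each other and with that of Nos1. Nos1 nevertheless lay above Sox10 within each library. Ret alone made up 62.5% of the summed CPM of the members, and the sum over the members is therefore largely a Ret value. It lay between 36.2 and 41.7 CPM in the Apc1322T libraries and between 36.9 and 46.0 CPM in the ApcMin libraries.

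**Figure D1:**
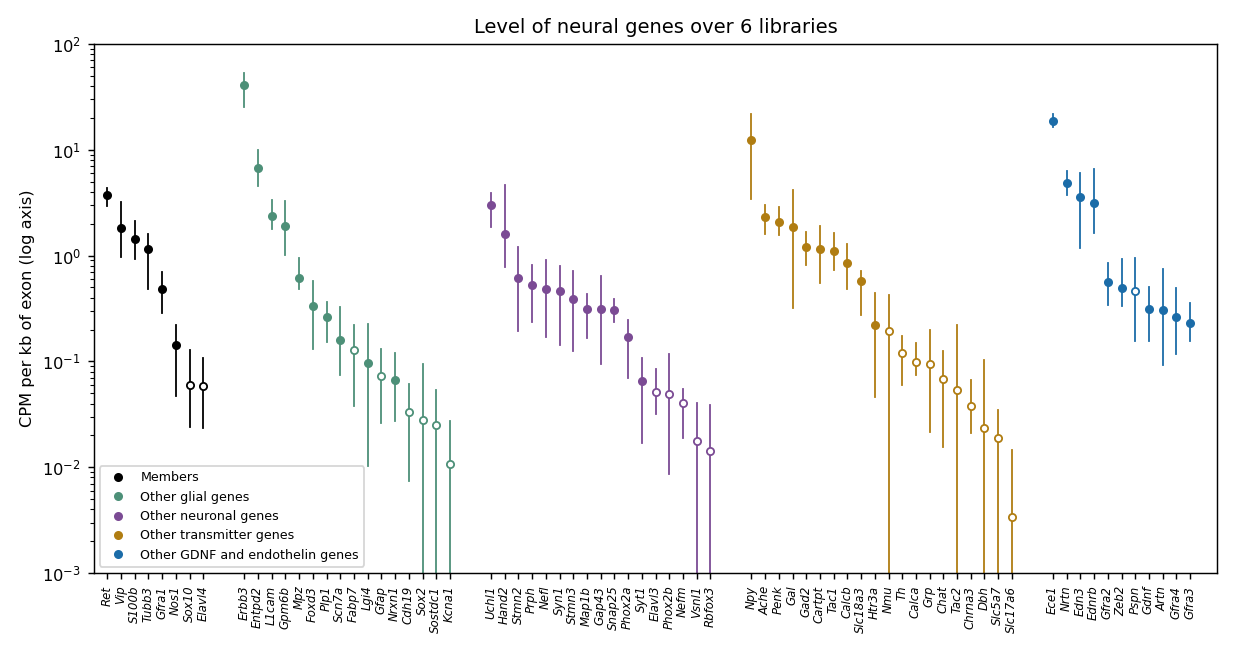
Mean level of each neural gene over the 6 libraries in CPM per kb of exon on a log axis, with a line from the lowest to the highest library and open circles for genes that did not pass the filter on low counts. Lines that reach the bottom of the axis belong to genes with a count of 0 in at least 1 library. Ret leads the members at 3.77 CPM per kb, and Sox10 and Elavl4 are lowest at 0.0597 and 0.0582.

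The comparison between genotypes asks whether neural RNA differed between adenomas of the 2 Apc alleles. None of the members was called at an adjusted p under 0.01 by edgeR (quasi-likelihood test, Benjamini-Hochberg adjustment), where 0% of all 16536 genes were called. DESeq2 called 194 of 17346 genes, 1.12%, and no member. At an unadjusted p under 0.05, edgeR placed 2 members higher in ApcMin, Tubb3 and Nos1, against 7.49% of all genes, and 0 members lower against 7.60%. The same 2 members were those whose 3 ApcMin libraries all lay above the 3 Apc1322T libraries, as did 11.0% of all genes, and in 0 members did they all lie below, as in 9.96% of all genes. Of the 6 tested members, 4 had a positive log2 fold change, which denotes a higher level in ApcMin, and 2 a negative one. Their median was 0.32, beside a median of 0.017 over all 16536 genes tested, of which 8661 had a positive log2 fold change.

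Of the glial members, S100b encodes a calcium-binding protein of enteric glia. It held 63, 51 and 39 estimated counts in Apc1322T replicates 1 to 3 and 62, 35 and 100 in ApcMin replicates 1 to 3. On the log2 CPM scale these were 1.25, 1.32 and 0.83 against 0.85, 0.53 and 1.69. The ApcMin group held both the lowest and the highest library, and the groups overlapped. The mean log2 CPM was 1.13 ± 0.26 (SD, n = 3) in Apc1322T and 1.03 ± 0.60 (SD, n = 3) in ApcMin. The fitted log2 fold change was -0.037 ± 0.38 (SE), with an edgeR adjusted p of 0.969, and its sign was not stable to the processing.

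Sox10, the transcription factor that neural crest derivatives need to become glia, was close to the limit of detection. It held 2, 2 and 5 counts in the Apc1322T libraries and 14, 4 and 5 in the ApcMin libraries. A single ApcMin library, replicate 1, stood above the other 5, which held 2 to 5 counts. Pooled by genotype, 9 counts gave 0.126 CPM in Apc1322T (95% exact Poisson interval 0.0578 to 0.240), and 23 counts gave 0.247 CPM in ApcMin (0.157 to 0.371). The ratio of ApcMin to Apc1322T was 1.96, with an exact interval of 0.872 to 4.80 that covers counting error only. A difference was thus not detected on these counts.

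Tubb3, the β-tubulin used as a general neuronal marker, lies on the plus strand at chr8:123411424-123422015 of GRCm38. It held 38, 19 and 42 counts in Apc1322T and 106, 74 and 93 in ApcMin. Scaled for depth, these were 1.39, 0.902 and 1.84 CPM against 2.96, 2.91 and 2.94 CPM. The 3 ApcMin libraries lay within a narrow band, and each was above the highest Apc1322T library. The mean log2 CPM was 0.48 ± 0.49 (SD, n = 3) in Apc1322T and 1.59 ± 0.012 (SD, n = 3) in ApcMin. The log2 fold change was 1.09 ± 0.31 (SE), a fold of 2.12, with an unadjusted p of 0.0111 and an adjusted p of 0.279 in edgeR. By p, Tubb3 ranked 652 among all genes tested. DESeq2 gave 1.07 with an adjusted p of 0.0816, and no alternative called it. The annotated gene Gm20388 spans Tubb3 on the same strand without sharing an exon base with it.

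Elavl4 encodes a neuronal RNA-binding protein and is also known in enteroendocrine cells. It held 4, 6 and 7 counts in Apc1322T and 21, 11 and 4 in ApcMin. ApcMin replicates 1 and 2 were the highest libraries, and ApcMin replicate 3 was, scaled for depth, the lowest of all 6. Pooled, these were 0.239 CPM (95% exact Poisson interval 0.139 to 0.382) in Apc1322T and 0.387 CPM (0.271 to 0.536) in ApcMin. The ratio was 1.62, with an exact interval of 0.888 to 3.08 for counting error only, and a difference was not detected on these counts.

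Of the GDNF receptor subunits, Ret held 798, 525 and 586 counts in Apc1322T and 716, 612 and 928 in ApcMin. The log2 CPM was 4.87, 4.64 and 4.68 against 4.33, 4.59 and 4.88. ApcMin replicate 1 was lowest and replicate 3 of the same genotype highest, so that the groups overlapped. The log2 fold change was -0.12 ± 0.16 (SE), with an edgeR adjusted p of 0.714. Ret had the smallest SE of the 6 tested members.

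Gfra1 held 58, 74 and 36 counts in Apc1322T and 69, 97 and 98 in ApcMin. The log2 CPM was 1.14, 1.84 and 0.72 against 1.00, 1.96 and 1.66, with the 2 genotypes interleaved. The log2 fold change was 0.29 ± 0.40 (SE), with an edgeR adjusted p of 0.736. An antisense gene, Gm16277, shares 416 exon bases with Gfra1. The reads are stranded, but the strand setting of the counting is not given in the sources used here. Gm16277 has no row of its own in the counts, and it is thus not known whether its reads were counted for Gfra1.

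Vip encodes vasoactive intestinal peptide, a relaxing and secretory transmitter. It held 110, 74 and 206 counts in Apc1322T and 245, 277 and 105 in ApcMin. The log2 CPM was 2.04, 1.84 and 3.18 against 2.79, 3.45 and 1.76. The lowest and the highest library were both ApcMin, and the spread within a genotype exceeded the difference between them. The log2 fold change was 0.34 ± 0.53 (SE), with an edgeR adjusted p of 0.770. Vip had the largest SE of the 6 tested members.

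Nos1, the neuronal nitric oxide synthase of inhibitory motor neurons, lies on the plus strand at chr5:117781032-117958840 of GRCm38. It held 29, 11 and 32 counts in Apc1322T and 88, 62 and 56 in ApcMin. Scaled for depth, these were 1.06, 0.522 and 1.40 CPM against 2.45, 2.44 and 1.77 CPM. Every ApcMin library lay above the highest Apc1322T library. The mean log2 CPM was -0.0016 ± 0.67 (SD, n = 3) in Apc1322T and 1.18 ± 0.26 (SD, n = 3) in ApcMin. The log2 fold change was 1.15 ± 0.40 (SE), a fold of 2.22, with an unadjusted p of 0.0260 and an adjusted p of 0.303 in edgeR. DESeq2 gave 1.14 with an adjusted p of 0.172, and no alternative called it. The antisense gene Gm26995 shares 268 exon bases with Nos1, so that the limit given for Gfra1 holds here as well.

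**Figure D2:**
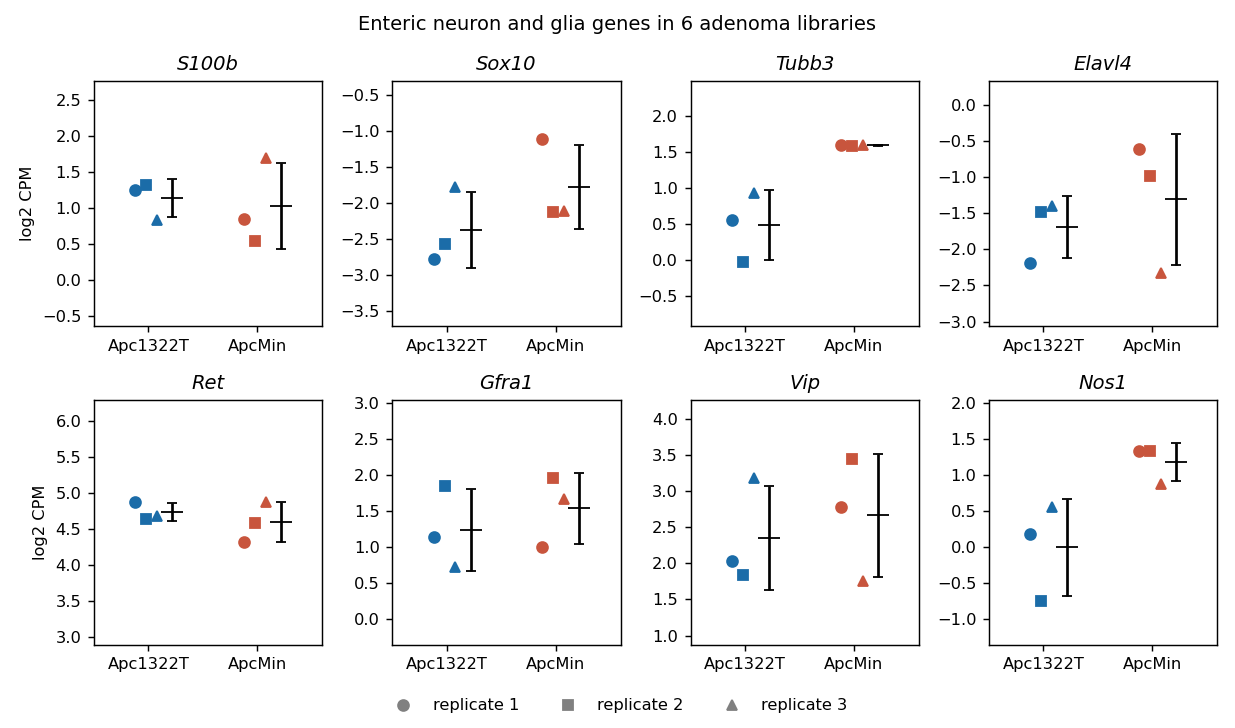
Log2 CPM of the 8 members in each library, with the mean and SD of each genotype (n = 3) beside the points. The vertical span is the same in every panel and its position differs. In Tubb3 and Nos1 all ApcMin libraries lie above all Apc1322T libraries, and in the other 6 members the genotypes overlap.

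The other genes of the enteric nervous system were read from lists of known markers, which hold 64 genes apart from the members. Of these, 42 passed the filter, 0 were called by edgeR and 5 had an unadjusted p under 0.05 in edgeR, all of them higher in ApcMin, beside 7.49% of all genes. Of the 42, 33 had a positive and 9 a negative log2 fold change, with a median of 0.48, where 8661 of all 16536 genes had a positive one. In 6 of the 42 all ApcMin libraries lay above all Apc1322T libraries, beside 11.0% of all genes, and in 0 below, beside 9.96%. The counts of 5 and 6 are near the shares over all genes. The 33 of 42 with a positive log2 fold change lie above theirs, and the 0 below its share. The list was not tested as a set, and the counts are given as a description. DESeq2 called 1 of them, Syn1, beside 1.12% of all genes.

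Of the 17 further general neuronal genes, 12 passed the filter. All 12 had a positive log2 fold change, beside 8661 of all 16536 genes, and their median was 0.88. Of the 12, 0 were called by edgeR, beside 0% of all genes. An unadjusted p under 0.05 in edgeR was found for 2, both higher in ApcMin, beside 7.49% of all genes. The summed level of the list was 21.6, 14.2 and 19.9 CPM in the Apc1322T libraries. It was 36.7, 33.0 and 30.2 CPM in the ApcMin libraries, and the groups did not overlap. Syn1, which encodes the synaptic vesicle protein synapsin, held 17, 10 and 17 counts in Apc1322T and 88, 58 and 84 in ApcMin. Its log2 fold change was 1.99 ± 0.30 (SE), with an unadjusted p of 3.18e-04 and an adjusted p of 0.257 in edgeR and an adjusted p of 2.46e-04 in DESeq2. On the opposite strand, the gene Timp1 overlaps the Syn1 locus without a shared exon base, and Araf shares 9 exon bases with Syn1. Timp1 stood at 21.0, 15.7 and 17.5 CPM in Apc1322T and at 70.0, 15.3 and 16.2 CPM in ApcMin. The part of reads from overlapping genes in the Syn1 value was not tested. Nefl, the light neurofilament, held 37, 23 and 13 counts in Apc1322T and 50, 78 and 74 in ApcMin, with a log2 fold change of 1.16 ± 0.45 (SE) and an edgeR adjusted p of 0.313. It shares 1108 exon bases with Nefm on the opposite strand. Map1b and Uchl1, the highest of this list in mean log2 CPM, had log2 fold changes of 0.65 ± 0.30 and 0.62 ± 0.28 (SE), each with an edgeR adjusted p of 0.356.

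The glial list was mixed in sign. Of its 16 genes 10 passed the filter. Of these 10, 6 had a positive and 4 a negative log2 fold change, beside 8661 positive among all 16536 genes, and the list median was 0.34. Its summed level of between 278 and 375 CPM in Apc1322T and between 198 and 308 CPM in ApcMin came to 83.2% from Erbb3, a neuregulin receptor that epithelium also expresses. Erbb3 had a log2 fold change of -0.47 ± 0.20 (SE) and an edgeR adjusted p of 0.334. Gpm6b, a membrane glycoprotein of glia and neurons, held 280, 120 and 150 counts in Apc1322T and 658, 241 and 410 in ApcMin. Its log2 fold change was 0.85 ± 0.32 (SE), with an edgeR adjusted p of 0.311. L1cam, a neural cell adhesion molecule, had a log2 fold change of 0.18 ± 0.23 (SE) and an edgeR adjusted p of 0.707. It shares 100 exon bases with Arhgap4 on the same strand, and the part of such reads in its value was not tested. Gfap and Sox2, chosen after their values were seen, did not pass the filter, as Sox10 did not. Gfap held 3 to 7 counts in Apc1322T and 5 to 18 in ApcMin, and Sox2 held 0 in each Apc1322T library and 3, 5 and 2 in ApcMin.

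The transmitter list had 10 of 20 genes past the filter. Of these 10, 8 had a positive and 2 a negative log2 fold change, beside 8661 positive among all 16536 genes, and the median was 0.37. Tac1, the precursor of substance P, held 68, 63 and 77 counts in Apc1322T and 147, 104 and 175 in ApcMin. Its groups did not overlap after scaling, and its log2 fold change was 0.63 ± 0.24 (SE), with an edgeR adjusted p of 0.311. Tac1 is also known in enteroendocrine cells. Gad2, a GABA-synthesising enzyme, had a log2 fold change of 0.48 ± 0.23 (SE, edgeR adjusted p 0.371), and Ache, the acetylcholine-degrading enzyme, of -0.15 ± 0.25 (SE, edgeR adjusted p 0.790). Chat, which makes acetylcholine and was chosen after its values were seen, did not pass the filter. It held between 2 and 8 counts in Apc1322T and between 8 and 15 in ApcMin.

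Of the 11 further genes of GDNF and endothelin signalling, which together guide the colonisation of the gut, 10 passed the filter. Of these 10, 7 had a positive and 3 a negative log2 fold change, beside 8661 positive among all 16536 genes, and the median was 0.46. Gdnf, the ligand of Ret and Gfra1, held 24, 17 and 13 counts in Apc1322T and 67, 32 and 46 in ApcMin. Scaled for depth, all ApcMin libraries lay above all Apc1322T libraries. The log2 fold change was 1.02 ± 0.34 (SE), with an unadjusted p of 0.0200 and an adjusted p of 0.288 in edgeR. The ligand thus had a higher fitted value in ApcMin while those of its receptor subunits, 0.29 for Gfra1 and -0.12 for Ret, lay within their SE of 0. The difference between these genes was not tested. Zeb2, a transcription factor of the neural crest, had a log2 fold change of 0.65 ± 0.32 (SE, edgeR adjusted p 0.374) with groups that did not overlap. It stood at 7.92, 6.70 and 8.36 CPM in Apc1322T and at 18.3, 8.64 and 8.97 CPM in ApcMin. ApcMin replicate 1 thus stood apart, and the other ApcMin libraries lay narrowly above Apc1322T. Ece1, which processes endothelins, gave 0.035 ± 0.13 (SE, edgeR adjusted p 0.909), and Edn3, the endothelin of the gut, gave -0.35 ± 0.68 (SE, edgeR adjusted p 0.821). Among other genes named, Zeb2, Uchl1, Tagln, Pdgfra and Ache share 653, 295, 1241, 456 and 98 exon bases, respectively, with a noncoding gene on the opposite strand, with the limit given for Gfra1.

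**Figure D3:**
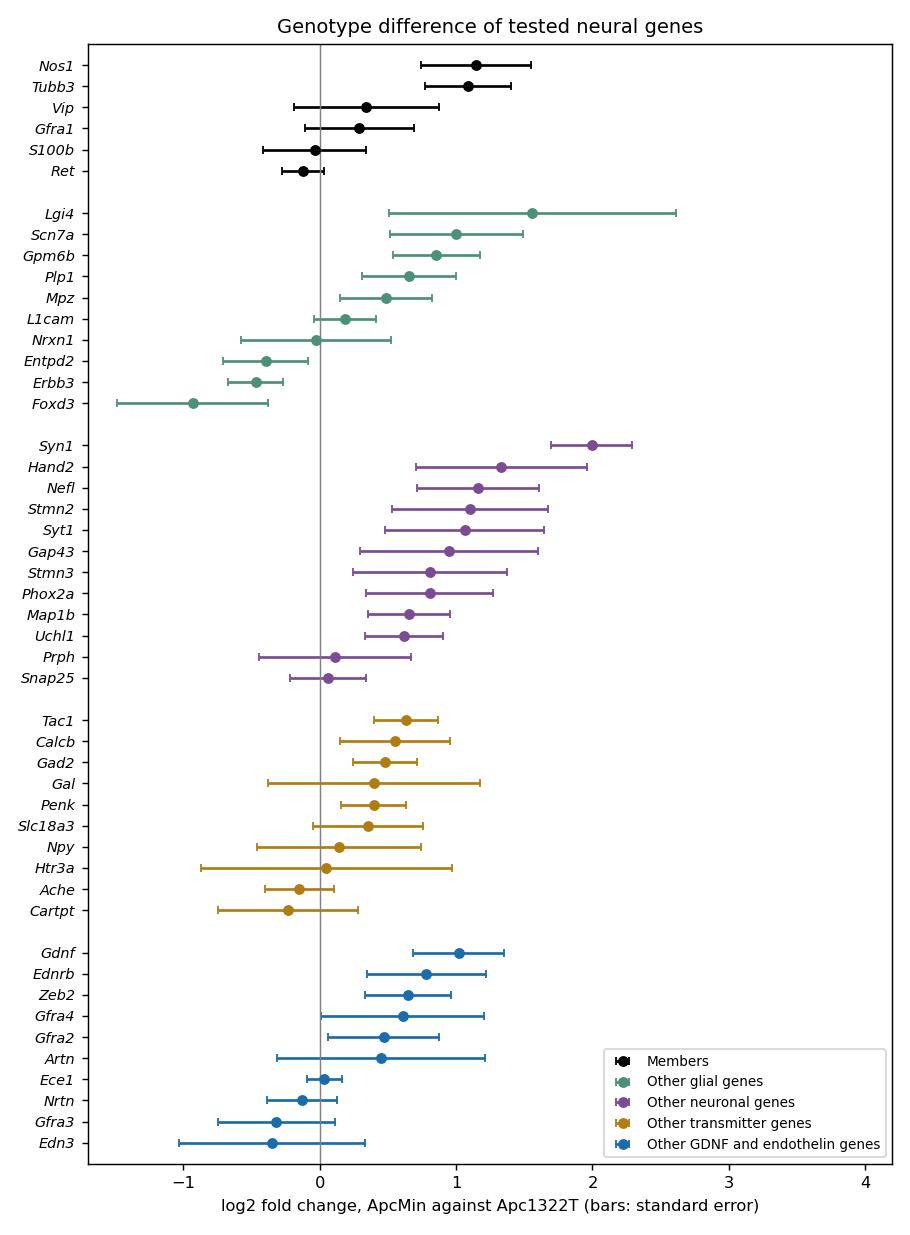
Log2 fold change of ApcMin against Apc1322T with its SE from edgeR for the 6 tested members and the 42 tested genes of the other neural lists. All 12 further neuronal genes lie right of 0, as would 8661 of all 16536 genes, and the members spread from -0.12 for Ret to 1.15 for Nos1.

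Markers of other cell types were read in the same libraries. Over all 16536 genes, 8661 had a positive log2 fold change, which is the share to set beside the counts below. The 11 smooth muscle markers, of which 10 passed the filter and all 10 had a positive log2 fold change, summed to 289, 166 and 310 CPM in Apc1322T and to 360, 475 and 323 CPM in ApcMin. These groups did not overlap. Acta2 and Tagln, which encode contractile smooth muscle proteins, had log2 fold changes of 0.59 ± 0.24 and 0.63 ± 0.25 (SE), with edgeR adjusted p of 0.327 and 0.325. All 7 fibroblast markers had a positive log2 fold change. Their sums were 1525, 607 and 865 CPM in Apc1322T and 3309, 988 and 1445 CPM in ApcMin. These sums overlapped, and ApcMin replicate 1 was the highest. Col1a1, a collagen gene, made up 33.1% of the mean fibroblast sum. All 5 endothelial markers also had a positive log2 fold change. Their sums of 92.8 to 153 CPM in Apc1322T and 148 to 225 CPM in ApcMin overlapped. All 8 epithelial markers had a negative log2 fold change, with sums of 14620, 17573 and 17984 CPM in Apc1322T and 12139, 13992 and 11884 CPM in ApcMin. None of these genes was called by edgeR. DESeq2 called the fibroblast genes Pdgfra and Dpt and the endothelial gene Cdh5, beside 1.12% of all genes. Apc1322T replicate 2 held the lowest level of Tubb3 and Nos1 and the lowest smooth muscle, fibroblast and endothelial sums, and without it the log2 fold changes of Tubb3 and Nos1 were 0.86 and 0.85 in edgeR. The part of these cells in the Tubb3 and Nos1 values was not tested.

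The members were therefore also expressed relative to these markers, as log2 ratios within each library. Against the summed smooth muscle markers, Tubb3 was -7.62, -7.41 and -7.34 in Apc1322T and -6.89, -7.32 and -6.75 in ApcMin, a difference of 0.47. Nos1 was -7.99, -8.12 and -7.72 against -7.15, -7.57 and -7.46, a difference of 0.55. In both genes all ApcMin libraries stayed above all Apc1322T libraries, with a difference under that of 1.09 and 1.15 in the fit. The other 6 members overlapped between genotypes on this scale, with differences from -0.77 in Ret to -0.038 in Sox10. Against epithelial markers the differences of Tubb3 and Nos1 were 1.50 and 1.58, with no overlap, and Sox10, on its few counts, differed by 0.99, also with no overlap. Against fibroblast markers they were 0.25 and 0.33, and against endothelial markers 0.38 and 0.46, and on both of these scales the genotypes overlapped. Against endothelial markers every ApcMin library of S100b and Ret lay below every Apc1322T library, with differences of -0.83 and -0.86. The ratios to epithelial, fibroblast and endothelial markers were chosen after the data were seen.

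Markers of enteroendocrine and immune cells, which also express some members, were mixed in sign. Of 13 tested enteroendocrine markers 6 had a positive and 7 a negative log2 fold change, and their sums of 82.7 to 153 CPM in Apc1322T and 108 to 129 CPM in ApcMin overlapped. Of 8 immune markers 3 had a positive and 5 a negative log2 fold change, with sums of 36.8 to 77.4 CPM and 44.2 to 67.7 CPM. Relative to the enteroendocrine markers, Tubb3 and Nos1 differed by 1.14 and 1.22 with no overlap, and Ret by -0.10 with overlap. Relative to the immune markers they differed by 1.08 and 1.16 with no overlap, and Ret by -0.16 with overlap.

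**Figure D4:**
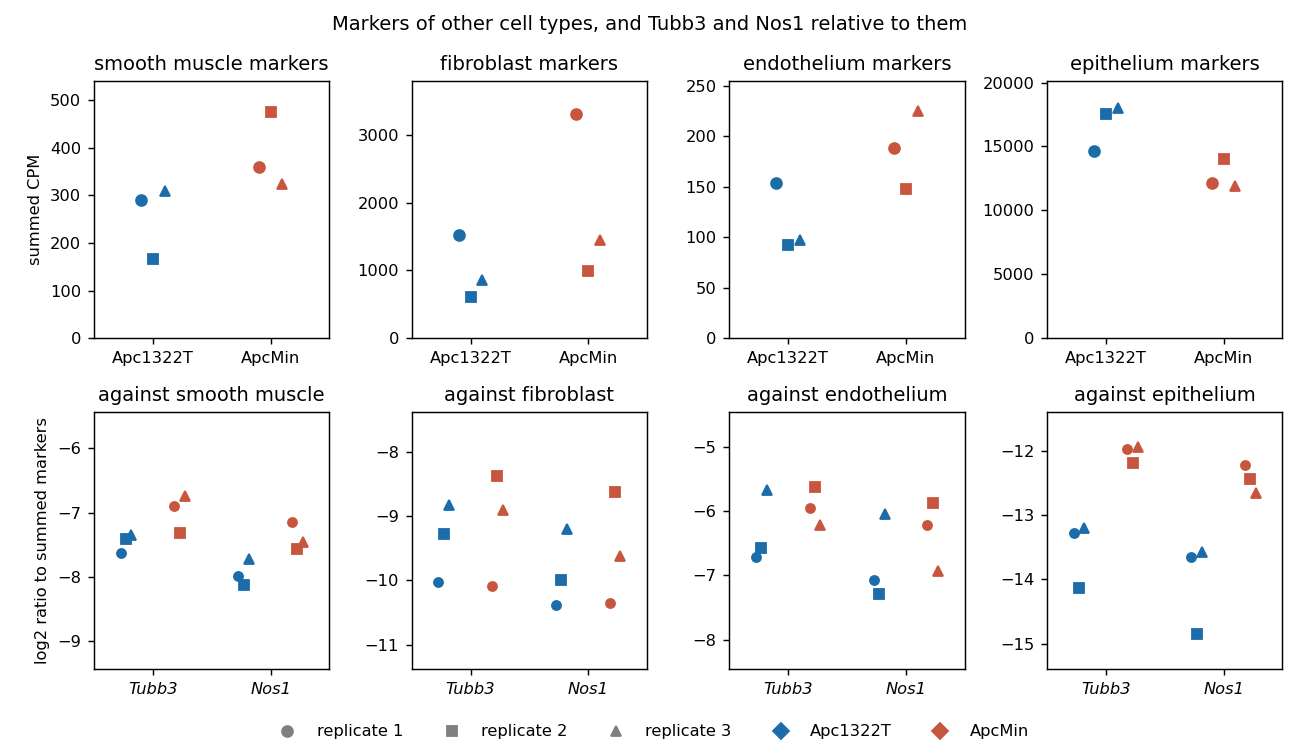
Upper row, summed CPM of the markers of 4 other cell types in each library, on axes that start at 0. Lower row, log2 ratio of Tubb3 and Nos1 to those sums. The genotypes separate in Tubb3 and Nos1 against smooth muscle and epithelial markers and overlap against fibroblast and endothelial markers.

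For the least abundant members the genes with the most similar pattern over the 6 libraries were listed. With Sox10 these were Capn10 (Pearson r 0.986), 9930111J21Rik2 (0.982), Dexi (0.981), Arhgap25 (0.980) and Gm17555 (0.976), and 17 tested genes had r over 0.95. With Elavl4 they were Alox5ap (0.981), Susd3 (0.978), Cbfa2t3 (0.975), Rai14 (0.974) and Usp21 (0.970), and 24 tested genes had r over 0.95. None of these genes is in the neural lists. The 6 points share their libraries and rest on 2 to 14 counts of Sox10 and 4 to 21 of Elavl4, so that these values describe the libraries only.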

How the data were processed

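RNA of excised intestinal adenomas was sequenced as single-end stranded 50 base reads in 6 libraries on a single lane, and the groups follow the genotype in the labels. The authors quantified the reads with Salmon against the GRCm38 transcriptome, imported them with tximport and deposited estimated counts per gene, not normalised. The annotation release and the strand setting are not given in the sources used here. The estimated counts were rounded. Symbols came from GENCODE M21 (34582 of 34866 genes), as did exon lengths. edgeR 4.0.16 (R 4.3.3) was run with filterByExpr at its defaults (minimum count 10, total 15), TMM, a robust quasi-likelihood test without covariates and Benjamini-Hochberg adjustment over 16536 genes, at the study's threshold of 0.01. SE was derived from the log2 fold change and F. Log2 CPM used a prior count of 2. For Sox10 and Elavl4, which failed the filter, pooled counts with exact Poisson intervals were used. The procedure was tested on simulated counts. No pair of libraries held the same counts, with a chi-square of at least 24.4 per gene.

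Alternatives were DESeq2 1.42.0, limma-voom 3.58.1, other scalings, filters and thresholds, each library left out, the replicate number as a block, and ratios to markers of other cells. The members and lists were chosen with earlier results of these data known, and no list was tested as a set. Named were all members, in each other list the 2 genes with the highest mean log2 CPM and the 2 with the smallest unadjusted p (a selection of these is printed), and the 5 genes most like Sox10 and Elavl4. Gfap, Sox2 and Chat were added after their values were seen. The microarray, survival and staining data of the study were not analysed here.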

Additional observations from a re-analysis of the deposited data

How the results depend on the processing

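Tubb3 and Nos1 kept a positive log2 fold change and missed the threshold under all 16 alternatives to the edgeR fit, with adjusted p between 0.0816 and 0.692 for Tubb3 and between 0.172 and 0.692 for Nos1, and 0 members were called under any of them. Over all genes, DESeq2 called 194, and 1 gene was called without the filter on low counts and 1 at an adjusted p under 0.05 in edgeR. Leaving out each library in turn gave 0 to 1 called genes, 2 to 4 members whose groups did not overlap and a median of the members between 0.12 and 0.47. The count of 4 came without ApcMin replicate 3, when Elavl4 passed the filter and lay higher in ApcMin and Ret lower, and the median of 0.12 came without ApcMin replicate 2. Without the filter the median over all 8 members was 0.49. The sign of 3 uncalled members was not stable. S100b, at -0.037, became 0.019 with upper quartile scaling, 0.12 with library totals only, 0.021 and 0.052 without Apc1322T replicates 1 and 2, and 0.084 and 0.18 without ApcMin replicates 1 and 2. Ret, at -0.12, became 0.030 with library totals only and 0.0028 without ApcMin replicate 1, and Vip became -0.12 without ApcMin replicate 2. Library totals moved the median of all genes from 0.017 to 0.17, and against that median S100b and Ret were still lower. Otherwise the cause was not tested. With each library left out, the log2 fold change lay between -0.46 and 0.18 for S100b, 0.86 and 1.34 for Tubb3, -0.28 and 0.0028 for Ret, 0.060 and 0.66 for Gfra1, -0.12 and 0.89 for Vip, and 0.85 and 1.46 for Nos1. The labels do not say whether the replicate numbers pair the libraries. The correlations of the deviations of same-numbered libraries were -0.014, 0.16 and -0.29. Differently numbered libraries were not set beside them, so that these values do not decide it. With the replicate block 0 genes were called, 2113 had an unadjusted p under 0.05 instead of 2495, and the median of the members was 0.33. Sox10 and Elavl4 rested on few counts, and their intervals of the ratio, which cover counting error only, include 1. Depth was not separated from the spread between libraries.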

Other observations

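The interstitial cells of Cajal, the pacemaker cells that lie beside enteric neurons in the muscle, were read from 3 markers. Kit, a receptor tyrosine kinase that these cells share with mast cells and some epithelial cells, held 293, 357 and 342 counts in Apc1322T and 998, 918 and 1501 in ApcMin. Its log2 fold change was 1.39 ± 0.25 (SE), with an adjusted p of 0.257 in edgeR and 7.81e-05 in DESeq2, and the groups did not overlap. Ano1, the chloride channel of these cells, which epithelium also expresses, gave 0.12 ± 0.28 (SE, edgeR adjusted p 0.854) and the transcription factor Etv1 0.50 ± 0.46 (SE, edgeR adjusted p 0.605), both with overlap between genotypes. Kit therefore stood apart from the other 2 markers of the list, and the difference between the 3 genes was not tested. Among enteroendocrine genes, the peptide gene Pyy lay higher in every ApcMin library, with a log2 fold change of 0.63 ± 0.26 (SE) and an edgeR adjusted p of 0.329, while the peptide gene Cck gave -0.45 ± 0.25 (SE, edgeR adjusted p 0.420) with overlap. Among immune genes, the cytokine receptor gene Il7r lay higher in every ApcMin library, with a log2 fold change of 1.27 ± 0.40 (SE) and an edgeR adjusted p of 0.286.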
